A study of Mus musculus with 14 samples.

Results

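Open chromatin of aged mouse blood stem cells was compared with and without Rhosin, a compound that keeps the GTPase RhoA from being activated. The comparison took 10 of the 14 libraries of the series: 5 of untreated cells, called aged, and 5 of cells kept with Rhosin, called aged Ri, each aged Ri library set against the aged library of the same replicate number. All 57289 consensus peaks were used, and none was chosen by its values. The cells were long-term haematopoietic stem cells (LT-HSCs), sorted from C57BL/6 bone marrow as negative for lineage markers (Lin-), positive for Sca1 and cKit and negative for CD34 and Flt3. Both groups came from mice of more than 80 weeks, and both were held for 16 h in HBSS with 10% serum at 37 °C, 3% oxygen and 5% carbon dioxide. The aged Ri cells had Rhosin at 100 µM throughout those 16 h. The labels call the aged libraries controls and name no vehicle. They do not say whether cells of 1 number came from the same animals or how many animals were pooled. The 4 libraries of young cells (10 to 16 weeks, kept the same way without Rhosin) did not enter the paired comparison, only 1 alternative fit over all 14 libraries, and their values are given beside the others as levels.

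ATAC-seq reads where the transposase Tn5 can insert into DNA, so that the count in a peak measures how open a promoter or enhancer is. RhoA switches between an inactive and an active form, and its active form drives actomyosin contraction and actin polymerisation, which in turn can act on the nucleus through the lamins and the proteins that couple them to the cytoskeleton. Its activity also reaches genes through transcription factors that respond to the actin pool, among them SRF with its partners MRTF, and YAP and TAZ. Several inducible programmes are described below as well. The aryl hydrocarbon receptor (AhR) senses small aromatic molecules and turns on enzymes such as Cyp1b1, and its own repressor Ahrr. NRF2 turns on antioxidant enzymes such as Nqo1, ATF3 is a stress-induced transcription factor, and AP-1 is the family of Fos and Jun dimers that act within minutes to hours of a stimulus.

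The 6 promoters printed here are shown for the 2 motifs described with the gains at gene starts. They were chosen after their values were seen, and each belongs to a gene whose start was called more open with Rhosin. Each runs 5′ to 3′ on the gene's strand, from 250 bases before to 50 after the start, and comes from RefSeq on GRCm38.p6 (mm10). Capitals in Emp1 (chr6:135362681-135362980, + strand), Sprr1a (chr3:92485832-92486131, - strand) and Gpr39 (chr1:125676746-125677045, + strand) mark the AP-1 motif TGANTCA. Capitals in Cyp1b1 (chr17:79715012-79715311, - strand), Ahrr (chr13:74292282-74292581, - strand) and Atf3 (chr1:191183284-191183583, - strand) mark GCGTG, the core of the xenobiotic response element bound by AhR, on either strand.
Emp1: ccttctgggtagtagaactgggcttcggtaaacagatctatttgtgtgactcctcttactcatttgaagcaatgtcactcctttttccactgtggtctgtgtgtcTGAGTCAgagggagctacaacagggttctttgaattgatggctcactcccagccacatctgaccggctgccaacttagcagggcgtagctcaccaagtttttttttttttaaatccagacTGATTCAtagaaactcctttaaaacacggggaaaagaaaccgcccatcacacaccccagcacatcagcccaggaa
Sprr1a: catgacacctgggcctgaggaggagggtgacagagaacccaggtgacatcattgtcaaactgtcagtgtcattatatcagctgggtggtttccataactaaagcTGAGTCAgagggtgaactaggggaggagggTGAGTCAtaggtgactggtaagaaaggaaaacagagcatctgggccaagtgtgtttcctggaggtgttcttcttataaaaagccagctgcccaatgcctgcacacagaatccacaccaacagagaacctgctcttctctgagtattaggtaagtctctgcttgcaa
Gpr39: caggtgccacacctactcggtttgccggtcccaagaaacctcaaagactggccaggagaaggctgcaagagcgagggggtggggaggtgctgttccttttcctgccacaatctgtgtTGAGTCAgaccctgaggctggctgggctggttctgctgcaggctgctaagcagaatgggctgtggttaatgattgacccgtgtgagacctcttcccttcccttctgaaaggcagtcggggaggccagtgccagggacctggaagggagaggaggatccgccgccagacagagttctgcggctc
Cyp1b1: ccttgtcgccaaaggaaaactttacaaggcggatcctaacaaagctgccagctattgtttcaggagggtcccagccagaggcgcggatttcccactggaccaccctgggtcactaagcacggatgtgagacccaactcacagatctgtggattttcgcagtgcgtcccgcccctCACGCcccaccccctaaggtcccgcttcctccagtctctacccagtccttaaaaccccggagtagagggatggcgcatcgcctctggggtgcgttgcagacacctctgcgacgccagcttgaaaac
Ahrr: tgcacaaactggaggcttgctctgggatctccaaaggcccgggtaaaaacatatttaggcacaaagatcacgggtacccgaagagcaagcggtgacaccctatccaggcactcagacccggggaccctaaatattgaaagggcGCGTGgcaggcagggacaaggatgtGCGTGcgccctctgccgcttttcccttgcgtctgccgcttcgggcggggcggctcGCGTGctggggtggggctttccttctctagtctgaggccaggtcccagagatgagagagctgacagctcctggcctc
Atf3: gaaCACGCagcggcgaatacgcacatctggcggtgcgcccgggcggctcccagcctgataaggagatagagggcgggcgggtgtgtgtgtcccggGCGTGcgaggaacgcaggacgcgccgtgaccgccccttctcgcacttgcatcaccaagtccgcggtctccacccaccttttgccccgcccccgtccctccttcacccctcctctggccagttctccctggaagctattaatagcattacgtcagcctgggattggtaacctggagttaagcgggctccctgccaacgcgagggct
Emp1 and Sprr1a each hold the AP-1 motif 2 times, and Ahrr holds the AhR core 3 times. The Cyp1b1 peak lay upstream of the printed stretch and did not overlap it. The other promoters printed each overlapped 1 peak.

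Levels are given as CPM, the count scaled to the library's total (TMM). The libraries held between 1153199 and 3176246 counts in peaks, with a median of 11 to 30 counts per peak. Totals averaged 1864900 ± 656562 without and 2278388 ± 827453 with Rhosin (SD, n = 5 each), and no difference was detectable (2-sided exact permutation within pairs, p = 0.1875, where 5 pairs cannot go below 0.0625). Gene starts took 37.5% ± 4.09 of counts in aged and 37.4% ± 4.25 in aged Ri libraries (SD, n = 5 each; exact permutation within pairs, p = 1.0). The windows of 33 of 35 stem cell identity genes held a peak, at a mean of 39.1 CPM per gene in aged libraries. For genes of unrelated tissues it was 2 of 15, at 10.1 CPM. All these means cover only genes whose window held a peak. It was 11 of 19 myeloid genes (17.0 CPM), 9 of 18 T and NK genes (12.1) and 8 of 15 B-lineage genes (12.6). It was 10 of 15 endothelial and stromal genes (18.1), 9 of 18 erythroid genes (28.9) and 18 of 23 megakaryocyte genes (30.1). The summed level of 11 myeloid windows was lower with Rhosin in 5 of 5 pairs, at 175 to 204 CPM in aged and 132 to 176 in aged Ri libraries. The part of this shift in the results below was not tested. Fewer cells of a type and less open chromatin per cell cannot be told apart in bulk libraries.

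With Rhosin, more sites were called more open than were called less open. Of 51901 peaks tested, 2292 changed (4.42%; edgeR quasi-likelihood test with the pair as a block, Benjamini-Hochberg adjusted p under 0.05 over all peaks). The gains numbered 1498 (2.89%) and the losses 794 (1.53%). In simulated counts the same fit called 64% of 50 gains of 2-fold and 48% of 50 losses of 2-fold. The part of this difference in the excess of gains was not tested. The median change was 1.85-fold for gains and 1.83-fold for losses. The largest gain was 4.72-fold and the largest loss 2.88-fold. Across all peaks the median log2 fold change was -0.02, where the scaling sets the bulk of peaks near 0. The values of the 5 aged and the 5 aged Ri libraries did not overlap at 847 peaks (1.63%), of which 342 were called gains and 149 called losses. An unadjusted p under 0.05 (edgeR) was reached by 8466 of the 51901 peaks.

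**Figure D1:**
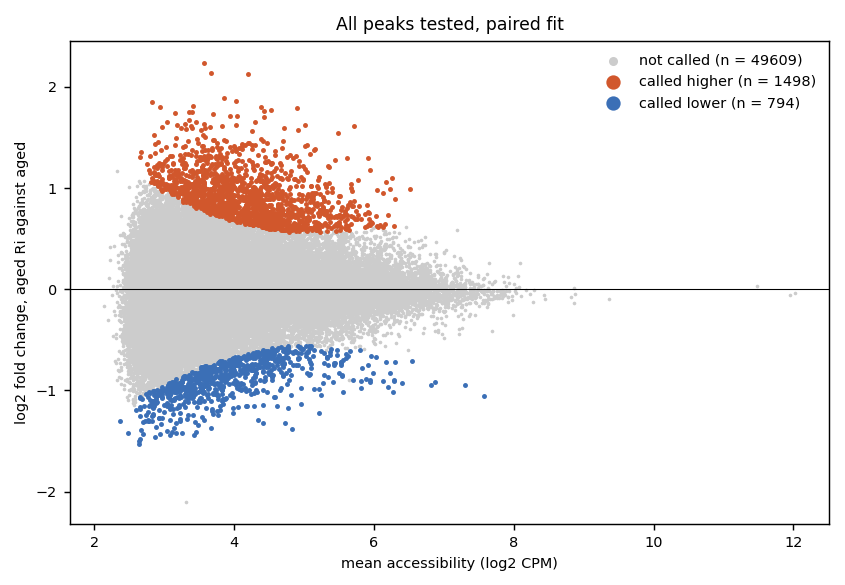
Log2 fold change of aged Ri against aged libraries (vertical axis) against mean accessibility in log2 CPM (horizontal axis) for all 51901 peaks tested, each point a peak. The 1498 called gains (orange) and 794 called losses (blue) lie mainly at middle levels, and gains reach further from 0.

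All 5 pairs showed the response, but not equally. The called gains had a median log2 difference of 1.07 in pair 3, 0.87 in pairs 2 and 4, 0.56 in pair 1 and 0.43 in pair 5. The called losses ran in the same order, from -0.97 in pair 3 to -0.52 in pair 5. The direction held in 5 of 5 pairs at 1111 gains (74.2%) and 572 losses (72.0%), against 12.9% of all peaks. Since these pairs made the calls, each pair was also read against calls made without it. Of the gains called from the other 4 pairs, 81.2% were above 0 in pair 1, 88.5% in pair 2, 99.0% in pair 3, 94.1% in pair 4 and 67.7% in pair 5, where 44.1% to 51.8% of all peaks were above 0. Of the losses, 79.0%, 79.7%, 99.4%, 82.4% and 59.9% were below 0 in pairs 1 to 5, where 48.2% to 55.9% of all peaks were below 0. In pair 5 the median log2 difference was 0.20 for the gains and -0.11 for the losses called without it. Pair 5, which is the whole of sequencing batch 3 among the aged and aged Ri libraries, thus had the smallest response in both directions. Pair 3 weighed most on the calls, and 463 peaks were past the threshold without it (305 gains and 158 losses, 457 of them also called with it), against 3569 without pair 5, 2095 without pair 1, 1548 without pair 2 and 1291 without pair 4. With the sequencing batch in place of the pair, 819 peaks were called, 594 gains and 225 losses, each of them also called with the block. DESeq2 with the block called 337 (269 gains, 68 losses).

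Few of the gains and losses lay at promoters. Peaks at gene starts (within 1 kb of a RefSeq start) made up 21.2% of the peaks tested but 7.81% of the gains and 4.41% of the losses. Peaks between genes were 34.3% of those tested, 44.7% of the gains and 50.9% of the losses, and peaks inside genes 36.8%, 42.8% and 40.6%. Gene starts are among the most open peaks, so the classes were also set side by side at like accessibility. In the most open 20% of peaks, 0.504% of 5359 gene-start peaks gained, against 6.95% of 1958 peaks between genes and 6.45% of 1923 inside genes. In the next 20% the shares were 1.85%, 8.42% and 8.01%, and in the middle 20% they were 1.82%, 4.66% and 3.94%. Among less open peaks the classes were closer, at 1.42%, 1.53% and 1.143%, and in the least open 20% at 0.169%, 0.507% and 0.256%. Without pair 3, gene starts made up 4.92% of the gains and 1.90% of the losses. The median distance to the nearest start was 30285 bp for gains and 37521 bp for losses, against 21266 bp for all peaks with a start on their chromosome.

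**Figure D2:**
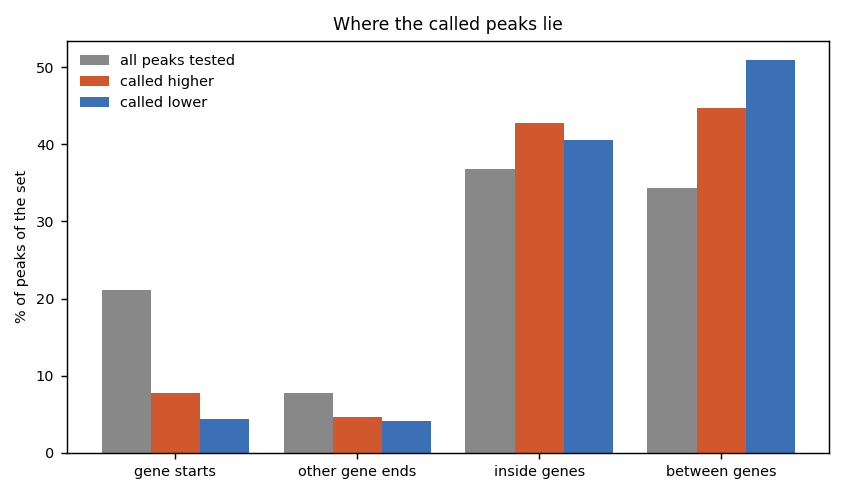
Share of peaks (vertical axis, % of the set) that lie at gene starts, at other gene ends, inside genes and between genes, for all peaks tested (grey), called gains (orange) and called losses (blue). Gene starts fall from 21.2% of all peaks to 7.81% of gains and 4.41% of losses.

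A core of 52 peaks kept its call under every alternative run, including the fit with neither pair nor batch, and 47 of them were gains. The largest was a peak with no gene within 50 kb (chr3:151323779-151324478). It read 5.61, 2.93, 1.5, 2.74 and 4.90 CPM in aged libraries 1 to 5 and 17.2, 15.3, 27.4, 15.8 and 6.47 CPM in the aged Ri libraries. Every aged Ri library was above every aged one, with a log2 fold change of 2.24 ± 0.30 (SE; adjusted p = 2.41e-07). A peak inside Baiap2, which encodes an adaptor between Cdc42 or Rac and actin (chr11:119975687-119976386), had aged values of 8.02, 6.44, 4.51, 1.37 and 1.34 CPM and aged Ri values of 16.1, 19.6, 29.4, 15.5 and 7.28 CPM. Each aged Ri library was above its partner, although the lowest aged Ri library was below the highest aged one (log2 2.14 ± 0.28, adjusted p = 4.15e-08). The Baiap2 start itself had -0.09 ± 0.20 (adjusted p = 1.00), so only its inner peak was called. A peak inside Stn1, a telomere maintenance gene (chr19:47508460-47509159), went from 11.8 ± 3.89 to 42.5 ± 20.9 CPM (SD, n = 5 each; log2 1.79, adjusted p = 3.10e-09). Its young libraries were at 16.4 ± 3.48 CPM (SD, n = 4).

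Other gains were near genes of varied roles, and those given next are a selection. The peak 6734 bp from Ripk3, the kinase that starts necroptosis (chr14:55795591-55796290), read 15.2, 10.5, 15.4, 14.4 and 14.7 CPM in aged and 38.5, 33.2, 71.0, 47.1 and 29.1 CPM in aged Ri libraries. The aged values were tight and the aged Ri values all lay above them, at log2 1.62 ± 0.19 (adjusted p = 5.67e-09). A peak inside Cflar, an inhibitor of caspase-8, rose from 6.49 ± 1.53 to 16.8 ± 6.08 CPM. Peaks inside Jam2, a junctional adhesion molecule, and Alcam, an adhesion receptor of stem cells, rose by 1.72 and 1.61 on the log2 scale. The peak at the 3′ end of Slc37a3 (chr6:39334050-39334749, 21 bp outside the gene) rose from 11.6 ± 3.18 to 35.7 ± 13.0 CPM (log2 1.59 ± 0.20, adjusted p = 4.46e-08), while young libraries were at 7.86 ± 3.89. The peak 1717 bp from Arid5a, an RNA-binding protein of the inflammatory response, rose from 23.0 ± 6.34 to 73.1 ± 35.0 CPM, with aged Ri 3 at 133 CPM. The Slc37a3 and Arid5a peaks were singled out after their values were seen.

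The 5 losses of the core were near or in Medag, Pkd1 and P2ry2 or had no gene within 50 kb. The peak inside Medag, a gene of adipocyte differentiation (chr5:149428292-149428991), read 36.9, 35.7, 38.3, 56.8 and 29.4 CPM in aged libraries and 12.5, 13.6, 17.1, 11.1 and 19.4 CPM in aged Ri libraries. The groups did not overlap, and the peak fell by 1.38 on the log2 scale (SE 0.19, adjusted p = 2.80e-07). A peak inside Pkd1, which encodes polycystin-1, fell from 40.4 ± 11.6 to 18.2 ± 0.983 CPM, and young libraries were at 20.8 ± 10.8 CPM. The peak 16171 bp from P2ry2, a receptor for extracellular nucleotides, fell from 24.8 ± 5.32 to 11.2 ± 2.45 CPM.

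At genes, more windows were called more open than less open, among them the starts of Cyp1b1, Atf3 and Nqo1. Counts were summed for each protein-coding gene over the peaks within 1 kb of its start, or of its more open end where no start was listed. Of 13178 such windows, 71 changed (0.539%), 65 up (0.493%) and 6 down (0.0455%). The aged and aged Ri values did not overlap at 87 windows (0.66%), which include 19 of the 65 and 4 of the 6. An unadjusted p under 0.05 (edgeR) was reached by 888 of the 13178 windows. Scaling over gene windows alone gave 94 up and 26 down, and offsets that remove trends with accessibility gave 123 up and 35 down. The largest gains of all were at windows with fewer counts, Adam11 (log2 1.53, mean count 12.7) and Slc17a8 (log2 1.36, mean count 18.3). Among windows with a mean of at least 20 counts and the same direction in 5 of 5 pairs, the 2 largest were Cyp1b1 and Atf3. Cyp1b1 oxidises polycyclic compounds and is a classic AhR target. Its window read 13.6, 9.37, 12.4, 11.6 and 13.4 CPM in aged and 33.8, 31.5, 43.6, 30.9 and 15.8 CPM in aged Ri libraries. The groups did not overlap, but pair 5 was nearly level (log2 1.33 ± 0.19, adjusted p = 1.07e-07).

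Atf3 was at 26.5, 27.5, 24.4, 27.4 and 60.1 CPM in aged and at 41.1, 81.7, 85.9, 106 and 84.9 CPM in aged Ri libraries. Aged 5 stood above the other aged libraries and above aged Ri 1, yet each pair was higher with Rhosin (log2 1.30 ± 0.20, adjusted p = 4.98e-07). Nqo1, the quinone reductase that NRF2 and AhR both induce, was at 37.7, 36.9, 43.6, 30.1 and 26.7 CPM in aged and at 49.98, 106, 120, 83.1 and 49.7 CPM in aged Ri libraries. Every aged Ri library was above every aged one (log2 1.18 ± 0.20, adjusted p = 7.82e-06). Young libraries were at 14.6 ± 3.21 CPM for Cyp1b1, 47.4 ± 21.1 for Atf3 and 26.96 ± 9.61 for Nqo1 (SD, n = 4). These 3 windows were the ones that stayed called whichever pair was left out, with DESeq2 and with the batch in place of the pair. Without pair 3 their adjusted p was 0.00877, 0.00877 and 0.0103, and no other window was called.

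The next gains at gene starts were Esrrg, an orphan nuclear receptor (log2 1.11), Emp1, a membrane protein of epithelia (1.10), Klrg2 (1.08), Lgals3, which encodes galectin-3 (1.01), and Ugt1a7c, a glucuronosyltransferase of detoxification (0.97). At gene ends with no listed start they were Pdgfb, a platelet growth factor (1.29), Lipi, a lipase (1.06), Gprc5a, a receptor induced by retinoic acid (1.03), and Tnfsf9, the ligand of 4-1BB (0.98). Emp1 rose from 16.7 ± 4.05 to 36.7 ± 15.8 CPM and Klrg2 from 17.4 ± 1.24 to 36.4 ± 11.6 CPM (SD, n = 5 each). Without pair 3 the adjusted p was 0.0932 for Esrrg, 0.103 for Emp1, 0.183 for Klrg2, 0.396 for Lgals3, 0.482 for Ugt1a7c, 0.239 for Pdgfb, 0.586 for Lipi, 0.0932 for Gprc5a and 0.824 for Tnfsf9.

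**Figure D3:**
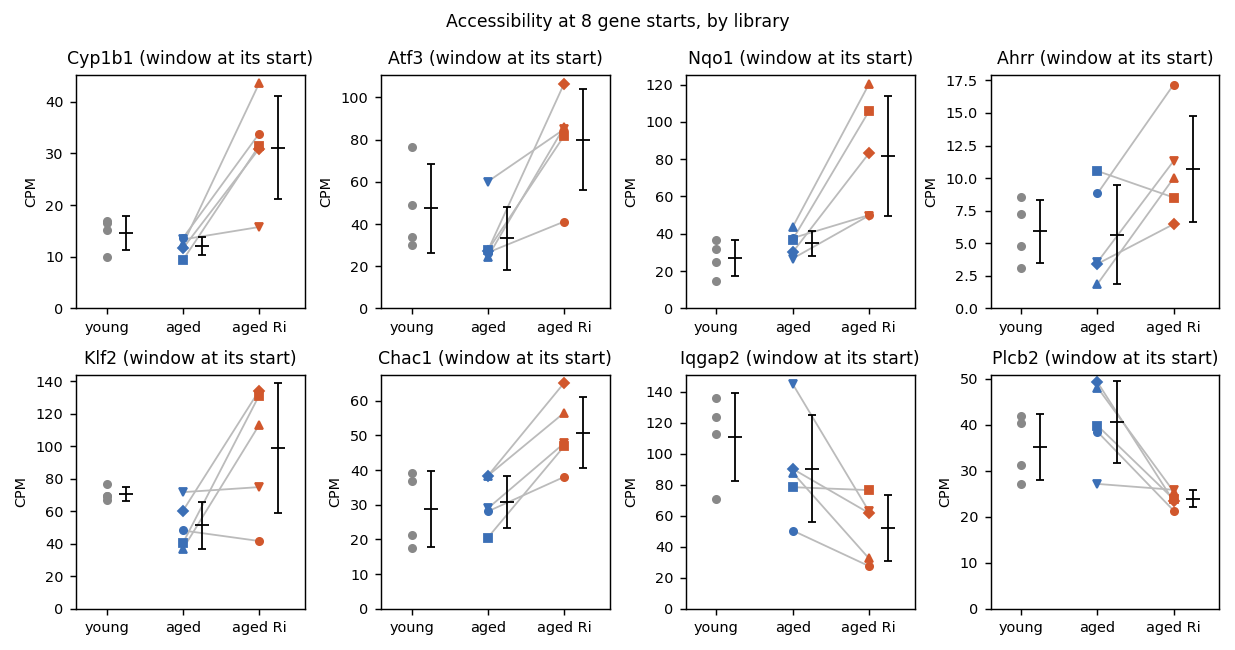
CPM (vertical axis) at the starts of 8 genes in each young (grey), aged (blue) and aged Ri (orange) library, with lines joining libraries of 1 replicate number, 1 marker shape per number, and bars for the mean and SD. Cyp1b1 and Nqo1 do not overlap between aged and aged Ri, Atf3 and Klf2 do, and Iqgap2 and Plcb2 are lower with Rhosin.

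The AP-1 motif was counted in 10 of 50 promoters with a called gain (20%), in 4.73% of all 10608 promoters tested and in 7.81% of the 32851 RefSeq promoters. In all, 9 motifs were searched on both strands of each promoter, from 250 bases before to 50 after the start, and AP-1 was read as TGANTCA. Without pair 3 only Cyp1b1, Atf3 and Nqo1 were called among gene windows, and their promoters hold 0 AP-1 motifs, so each of the 10 belongs to a gain that is not called without that pair. Besides Emp1, Sprr1a and Gpr39, the promoters with AP-1 were those of Enthd1, Gcnt4, Gm14137, Klra2, Plppr2, Slc9a3r2 and Spata4. Read the other way, 1.99% of the 502 promoters with AP-1 gained and 0.396% of the 10106 without it. The RUNX motif TGTGGT was in 22% of gaining promoters and in 12.1% of all promoters tested. The xenobiotic core GCGTG was in 34% of gaining promoters and 52.7% of all tested. The ETS motif GGAAGT was in 20% of gaining promoters, where 28.6% of all tested held it. The antioxidant motif TGACNNNGC, which can overlap AP-1, was in 14% of gaining promoters against 14.9% of all. For the TEAD motif GGAATG the shares were 10% of gaining promoters and 11.5% of all. The CTCF motif CCACNAGG stood in 8% of gaining promoters and 5.48% of all. GATA, searched as AGATAA, was in 4% of gaining promoters against 6.03% of all tested. The cyclic AMP motif TGACGTCA was in 0% of gaining promoters and in 3.33% of all. The ratio of observed to expected CpG had a median of 0.47 in gaining promoters and 0.77 in all tested. In the third of promoters with the lowest ratio, 3.36% of the 268 with AP-1 gained against 0.826% of the 3268 without. These are descriptions of letters in 1 window, and binding was not measured.

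Of 24 peaks near genes of the AhR list, 5 were called gains (20.8%, where 2.89% of all peaks gained), 3 of them at Ahrr and 1 each at Cyp1b1 and Tiparp. The list, like all 22 used here, was written with earlier results of these data known. None of its peaks was called lost (edgeR; 2 had an unadjusted p under 0.05 and a lower level, and DESeq2 called 2 of the 24, in either direction). The window of Ahr itself, the receptor, had -0.44 on the log2 scale (adjusted p = 0.514). Ahrr, the repressor of AhR, gained at 3 of 3 peaks. The largest lay inside the gene (chr13:74259964-74260663), at 18.4, 25.2, 28.6, 21.9 and 11.6 CPM in aged and 71.3, 74.1, 74.2, 65.1 and 28.7 CPM in aged Ri libraries. The 4 aged Ri libraries of batches 1 and 2 were at 65.1 CPM or more, and aged Ri 5, the lowest, was just above the highest aged one (log2 1.55 ± 0.19, adjusted p = 1.30e-08). This peak kept its call under every alternative. The Ahrr start rose by 1.10 on the log2 scale (adjusted p = 0.0235), but was not called without pair 1, 3, 4 or 5 (adjusted p = 0.08, 0.922, 0.0836 and 0.162). Tiparp, which encodes an ADP-ribosyltransferase that restrains AhR, gained a start peak (log2 0.64, adjusted p = 0.0267) that was not called without pair 2, 3 or 4, with 0.378 without pair 3. Without pair 3, 2 of 21 peaks of the list gained, against 0.675% of all peaks.

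Among NRF2 and antioxidant genes, 4 of 125 peaks gained (3.2%, near the 2.89% of all peaks) and 1 was lost (0.8%, against 1.53%). The gains were at Nqo1, inside Slc7a11, the cystine transporter (16.0 ± 5.74 to 38.8 ± 22.5 CPM, log2 1.22, adjusted p = 5.25e-06), and at 2 peaks of Hmox1, the haem oxygenase. The peak 519 bp from the end of Hmox1 read 2.41, 7.03, 9.40, 4.79 and 4.45 CPM in aged and 3.12, 13.6, 35.2, 16.2 and 10.1 CPM in aged Ri libraries. It was low in pair 1 and high in aged Ri 3, and without pair 3 its adjusted p was 0.0713 (log2 1.47 and adjusted p = 5.83e-05 with all pairs). Of 33 gene windows, 1 was called, that of Nqo1, with a list median of 0.05 against -0.00 for all windows. In the integrated stress response list 4 of 86 peaks gained (4.65%, against 2.89% of all peaks) and 1 was lost (1.16%, against 1.53%). Of its 32 windows 2 were called, Atf3 and Chac1. Chac1, which degrades glutathione, rose from 30.8 ± 7.59 to 50.8 ± 10.3 CPM at its start (log2 0.73, adjusted p = 0.0196), but was not called without pair 2, 3 or 4 (adjusted p = 0.102, 0.322 and 0.238). No peak of 31 near heat shock genes was called in either direction by edgeR or by DESeq2 (3 had an unadjusted p under 0.05 with edgeR, all higher). Of the 16 windows of this list none was called by either tool (2 had an unadjusted p under 0.05), and those of Hspb1 and Hspa1a had 0.62 and 0.53 on the log2 scale (adjusted p = 0.138 and 0.227). No peak of 63 near interferon and antigen presentation genes was called by edgeR or DESeq2 (2 higher and 4 lower at an unadjusted p under 0.05 with edgeR), and the 26 windows had a median of 0.00. For scale, 8466 of the 51901 peaks and 888 of the 13178 windows tested had an unadjusted p under 0.05 (edgeR).

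AP-1 and immediate early genes gained at 16 of 152 peaks (10.5%, against 2.89% of all peaks) and lost at none with edgeR. Another 3 were lower at an unadjusted p under 0.05 (edgeR), and DESeq2 called 5 of the 152 in either direction. The gains were spread over 12 genes: Fos, Fosl2 and Batf3 of the AP-1 family, the early genes Ier2, Ier3, Ier5, Nr4a1, Dusp6 and Btg2, and the Krüppel-like factors Klf2, Klf4 and Klf6. Without pair 3 the count was 6 of 144 (4.17%, where 0.675% of all peaks gained), and with the batch in place of the pair 7 of 152. Klf2, a regulator of quiescence and of flow-responsive genes, gained at 4 of its 5 peaks. Its start read 48.1, 40.4, 36.8, 60.2 and 71.7 CPM in aged and 41.7, 131, 113, 134 and 74.8 CPM in aged Ri libraries. Pairs 2, 3 and 4 were far higher with Rhosin, pair 5 was nearly level and pair 1 was lower (log2 0.89 ± 0.20, adjusted p = 0.00705, but 0.688 without pair 3 and 0.267 without pair 4). The peak 15216 bp from Klf2 (chr8:72303147-72303846) was higher in every aged Ri library than in any aged one, at 4.01, 4.69, 6.39, 5.47 and 4.45 against 8.85, 17.0, 23.2, 17.6 and 9.70 CPM (log2 1.60 ± 0.26, adjusted p = 1.29e-05). Other early-gene peaks were near Ier5 (log2 1.41) and Klf6 (1.19), which kept their calls without any 1 pair, and near Btg2 (1.03; 0.118 without pair 3). The start of Klf4 was not called (0.23 ± 0.19, adjusted p = 1.00).

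Some other genes gained at several of their peaks. In all, 1593 genes had a called peak within 50 kb, 218 of them 2 or more. Of these 218, 48 had calls in both directions, and 21 genes had 3 or more gains and 22 had 3 or more losses. Nos3, the endothelial nitric oxide synthase, gained at 3 of 4 peaks, Lmcd1 at 3 of 5, Lef1, a Wnt effector, at 3 of 7, Smad7, an inhibitor of TGF-β signalling, at 3 of 9, Rasa3, a Ras and Rap inactivator of blood cells, at 4 of 14 and Pde4b, a cyclic AMP phosphodiesterase, at 4 of 21. These genes were singled out after their values were seen. The peak 3250 bp from Nos3 rose from 14.8 ± 3.27 to 37.9 ± 19.0 CPM and a peak inside Smad7 from 15.5 ± 1.86 to 35.2 ± 12.5 CPM, and both kept their calls under every alternative. The peaks at Lef1 and Rasa3 did not stay called without pair 3 (adjusted p from 0.0855 to 0.283 and from 0.201 to 0.659).

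**Figure D4:**
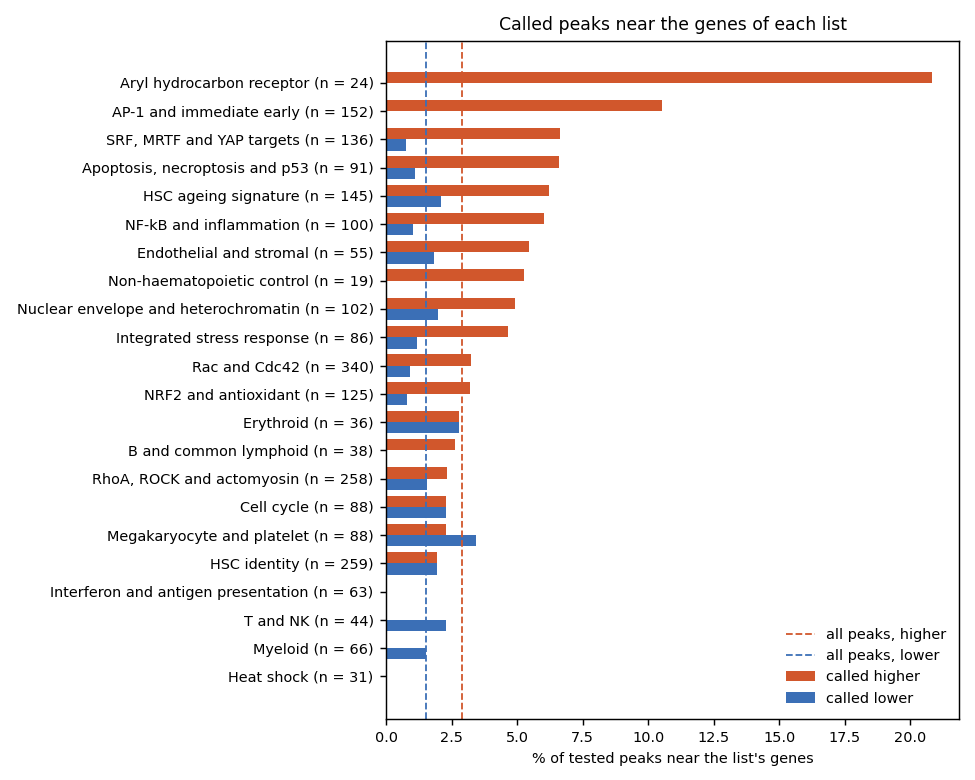
Share of tested peaks near the genes of each of the 22 lists (horizontal axis, %) that were called gains (orange) or losses (blue), with the number of peaks beside each list and the share over all peaks as dashed lines. The AhR (20.8%) and AP-1 (10.5%) lists lie furthest above the 2.89% of all peaks, and interferon and heat shock genes have none.

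Genes that act with RhoA itself had called peaks at about the share of all peaks with all pairs, and this share moved with the pairs used. Near the genes of the RhoA, ROCK and actomyosin list 6 of 258 peaks gained (2.33%) and 4 were lost (1.55%). The gains were 3 of 266 without pair 1 (1.13%, against 2.49% of all peaks), 1 of 270 without pair 2 (0.370% against 1.93%) and 1 of 235 without pair 3 (0.426% against 0.675%). They were 14 of 233 without pair 5 (6.01% against 5.08%). Rhoa had 95.4 ± 28.2 CPM at its start in aged and 90.3 ± 30.6 in aged Ri libraries (log2 -0.10 ± 0.20, adjusted p = 1.00), with 3 of 5 pairs lower. That peak is shared with another gene. Leaving out pair 5 gave Rhoa 0.09 and leaving out pair 2 gave -0.35. None of the 44 windows of the list was called by edgeR or DESeq2 (2 had an unadjusted p under 0.05 with edgeR), with a median of -0.00. The lost peaks were inside or near Myo9b, an unconventional myosin, Diaph1, a formin, and Akap13, a kinase-anchoring protein. Another Akap13 peak gained (log2 1.02, adjusted p = 0.00362, but 0.0638 and 0.313 without pairs 2 and 3). The Myo9b peak read 13.6, 14.6, 13.5, 13.7 and 16.0 CPM in aged and 7.81, 3.41, 5.49, 3.60 and 6.06 CPM in aged Ri libraries. Its aged values were close together and no aged Ri value reached them (log2 -1.42 ± 0.26, adjusted p = 1.10e-04). The larger of the 2 Akap13 losses (log2 -1.16) had an adjusted p of 0.165 without pair 3, and the Diaph1 loss (-0.76) had 0.0504, 0.0921, 0.571 and 0.075 without pairs 1 to 4. The gained peak inside Arhgef12, an exchange factor for RhoA, had log2 1.00 and 0.0951 without pair 3.

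Among Rac and Cdc42 genes 11 of 340 peaks gained (3.24%, near the 2.89% of all peaks) and 3 were lost (0.882%, against 1.53%). The gains were 9 of 354 without pair 1 (2.54% against 2.49% of all peaks) and 7 of 366 without pair 2 (1.91% against 1.93%). They were 4 of 298 without pair 3 (1.34% against 0.675%), 6 of 346 without pair 4 (1.73% against 1.64%) and 20 of 290 without pair 5 (6.90% against 5.08%). Besides Baiap2, a peak inside Rac1 rose from 22.1 ± 2.61 to 43.1 ± 11.3 CPM in 5 of 5 pairs (log2 0.95, adjusted p = 2.49e-04). A peak inside Elmo1, part of a Rac exchange factor, rose by 1.11 on the log2 scale (adjusted p = 0.00112), with library 3 the highest in both groups. Iqgap2, a scaffold that binds Rac1 and Cdc42, was the most open of the 6 windows that fell. It read 50.5, 78.5, 88.0, 90.3 and 145 CPM in aged and 27.6, 76.6, 32.6, 61.9 and 63.1 CPM in aged Ri libraries. Each aged Ri library was below its partner, in pair 2 by little, and the groups overlapped (log2 -0.83 ± 0.20, adjusted p = 0.0138, but 0.0611, 0.649 and 0.164 without pairs 1, 3 and 4). Young libraries were at 111 ± 28.3 CPM.

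Targets of SRF, MRTF and YAP gained at 9 of 136 peaks (6.62%, against 2.89% of all peaks) and lost at 1 (0.735% against 1.53%). The gains were inside or near Actn1, Actn4, Tpm1 and Flna, which encode proteins that cross-link or coat actin, Actb, Itgb1, and Wwtr1, the gene of TAZ. A peak inside Flna, on the X chromosome, was at 5.61, 12.9, 11.3, 10.9 and 15.6 CPM in aged and 17.2, 28.9, 31.6, 29.8 and 22.2 CPM in aged Ri libraries. All aged Ri values were above all aged ones (log2 1.19 ± 0.20, adjusted p = 3.22e-05). The Wwtr1 peak rose from 13.8 ± 6.14 to 31.9 ± 13.3 CPM (log2 1.23, adjusted p = 6.30e-06). None of the 26 windows of this list was called by edgeR or DESeq2 (2 had an unadjusted p under 0.05 with edgeR), and its 9 called gains lay inside or between genes. Without pair 3, 4 of 120 peaks gained (3.33%, against 0.675% of all peaks).

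Genes of the nuclear envelope and heterochromatin gained at 5 of 102 peaks (4.90%, against 2.89% of all peaks) and lost at 2 (1.96% against 1.53%). Without pair 3, 2 of 88 gained (2.27%, against 0.675% of all) and none was lost. The gains were at Sun1, Syne3, Lmna and Banf1, of which SUN1 and nesprin-3 link the envelope to the cytoskeleton and Lmna encodes the A-type lamins. A start peak of Sun1 read 10.4, 4.69, 10.5, 8.21 and 14.7 CPM in aged and 23.4, 12.8, 42.6, 18.0 and 19.4 CPM in aged Ri libraries. It was higher with Rhosin in 5 of 5 pairs, with 1 aged Ri library below the highest aged one (log2 1.25 ± 0.22, adjusted p = 4.42e-05), and kept its call without any 1 pair. The peaks of Syne3 (1.44) and Lmna (0.75) had adjusted p of 0.107 and 0.0851 without pair 3, and that of Lmna was also not called without pair 4 (0.0947). The Banf1 peak (0.76) was not called without pair 1, 2, 3 or 4 (0.1085, 0.1432, 0.2921 and 0.0635). A peak inside Syne2, which encodes nesprin-2, had log2 -0.75, with adjusted p of 0.174 without pair 3 and 0.0717 without pair 4. No window of the 29 was called by edgeR or DESeq2 (1 had an unadjusted p under 0.05 with edgeR), and that of Lmna had 0.61 (adjusted p = 0.170).

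Genes of stem cell identity had as many called gains as losses. Of 259 peaks near 35 such genes, 5 gained and 5 were lost (1.93% each, against 2.89% and 1.53% of all peaks). None of 33 windows was called by edgeR or DESeq2 (4 had an unadjusted p under 0.05 with edgeR). Kit, the receptor for stem cell factor, had 52.9 ± 5.79 CPM at its start in aged and 45.5 ± 11.5 in aged Ri libraries (log2 -0.23, adjusted p = 0.994). Procr, which encodes the stem cell marker EPCR, had 19.1 ± 3.50 and 27.3 ± 8.97 CPM (log2 0.52, adjusted p = 0.239). A peak inside Runx1 gained (log2 1.25) and 1 inside Tal1 was lost (log2 -0.79), both regulators of blood formation, but their adjusted p was 0.103 and 0.110 without pair 3. The loss near Gfi1b, a repressor of erythroid and platelet genes, kept its call without any 1 pair, at 17.6 ± 3.41 CPM in aged, 8.02 ± 3.17 in aged Ri and 6.04 ± 2.29 in young libraries (log2 -1.16, adjusted p = 4.50e-04).

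The list of genes known to be raised in aged stem cells gained at 9 of 145 peaks (6.21%, against 2.89% of all peaks) and lost at 3 (2.07% against 1.53%). Without pair 3 there were 4 gains (3.23%, against 0.675% of all) and 0 losses in 124 peaks. The gains included Jam2, Alcam and Wwtr1. Vwf and Selp, 2 platelet genes often used as marks of aged stem cells, were not called, at log2 -0.51 (adjusted p = 0.50) and 0.34 (adjusted p = 0.956). Of 28 windows, 1 was called, that of Jam2 (log2 0.70, adjusted p = 0.0440), and it was not called without any 1 of the 5 pairs (adjusted p from 0.0556 to 0.480). Of the lists for other blood lineages, the megakaryocyte list had 2 gains (2.27%) and 3 losses (3.41%) in 88 peaks. The erythroid list had 1 of each in 36 (2.78% each) and the myeloid list 1 loss in 66 (1.52%). The T and NK list had 1 loss in 44 (2.27%) and the B-lineage list 1 gain in 38 (2.63%). Over all peaks the shares were 2.89% for gains and 1.53% for losses. The 10 myeloid windows had a median of -0.25, with Mpo at -0.98 and Csf1r at -0.72, none called (adjusted p = 0.293 and 0.229). At an unadjusted p under 0.05 (edgeR), 4 of the 10 were lower and 0 higher, against 888 of all 13178 windows in either direction. Of the 66 myeloid peaks, 11 were lower and 1 higher. Of the 44 T and NK peaks 8 were lower and 1 higher, and of the 38 B-lineage peaks 3 and 1. The megakaryocyte list had 11 lower and 5 higher, and the erythroid list 3 lower and 5 higher. Of B-lineage windows, Ebf1 was called (log2 0.67, adjusted p = 0.0436) with all pairs but not without pair 1, 2, 3 or 4 (0.0661, 0.0923, 1 and 0.157), and of endothelial windows Fn1, which also lost its call without pair 2, 3 or 4 (0.149, 0.696 and 0.283). Among death genes 6 of 91 peaks gained (6.59%, against 2.89% of all peaks) and 1 was lost (1.10% against 1.53%), 19747 bp from Bcl2 (log2 -1.20), which encodes a survival protein. Without pair 3, 1 of 82 gained (1.22%, against 0.675% of all), and without pair 2, 1 of 92 (1.09%, against 1.93%). Without pair 4 it was 2 of 91 (2.20%, against 1.64%). Cell cycle genes gained at 2 and lost at 2 of 88 peaks (2.27% each, against 2.89% and 1.53% of all peaks). Of these 4, 3 were near or inside Cdk6. Its losses had log2 -1.11 (adjusted p = 0.00112) and -0.93 (0.00689, but 0.123 without pair 4), and its gain 0.73 (0.0388, but 0.111, 0.332 and 0.166 without pairs 1, 3 and 4).

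Few gene windows were called less open. The 6 windows that fell were those of Myl10, Iqgap2, Arhgap4, Plcb2, Smim6 and Gm15319. Plcb2, a phospholipase that acts below chemokine receptors, read 38.5, 39.8, 48.1, 49.3 and 27.2 CPM in aged and 21.3, 23.8, 25.5, 23.4 and 25.9 CPM in aged Ri libraries. The aged Ri libraries were tightly grouped and all below the aged ones (log2 -0.73 ± 0.18, adjusted p = 0.0157, but 0.415 and 0.298 without pairs 3 and 4). Arhgap4, a GTPase-activating protein of blood cells on the X chromosome, fell from 24.1 ± 5.40 to 14.1 ± 3.32 CPM, with no overlap (adjusted p = 0.0178, and 0.0600, 0.0979 and 0.696 without pairs 1, 2 and 3). Myl10, a myosin light chain, fell by 0.95 on the log2 scale (adjusted p = 0.0186, and 0.0979, 0.443 and 0.230 without pairs 2, 3 and 4). None of the 6 stayed called without pair 3.

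Some of the losses were gathered in a few regions, several of them with repeated gene families. Among 2359 stretches of 1 Mb with tested peaks, 11 held 5 or more losses, and these 11 took 163 of the 794 (20.5%) with 768 of the tested peaks. The most were on chromosome 8, with 41 of 129 peaks lost and none gained (first to last lost peak, chr8:20017676-20659372). This region holds Gm15319, Gm40469 and Gm21119. Its summed accessibility was 3190, 3899, 1648, 2239 and 2441 CPM in aged and 2422, 2577, 1086, 1655 and 1651 CPM in aged Ri libraries. The sum, which was not tested, was lower with Rhosin in each pair, while the groups overlapped, and young libraries averaged 3361 ± 1537 CPM. Next came a cluster of zinc finger genes with Zfp978, Zfp982 and Rex2 (chr4:147016888-147804651, 24 of 109 peaks), and a stretch with Sp110, Gm7592 and A530032D15Rik (chr1:85006886-85610312, 23 of 125). A stretch of chromosome 9 (chr9:3001990-3032069) with no gene named at its losses had the largest share, 16 of 23 peaks, and its sum went from 1645 ± 674 to 947 ± 436 CPM. The zinc finger cluster of chromosome 4 went on before this (chr4:146052257-146991858, 15 of 62 peaks, near Zfp993 and Zfp600). The Btbd35f family of the X chromosome (chrX:31146326-31734465) had 9 of 31 peaks lost, with 4 of 5 pairs lower in sum, and in the other 7 regions with the most losses all 5 pairs were lower.

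The repeated families among these regions consist of near-identical copies, and how reads that match several copies were assigned is not given in the sources used here. The levels are therefore uncertain for any 1 copy, and losses at neighbouring copies need not be separate events. Outside the 11 stretches, 631 of 51133 peaks were lost (1.23%). Without pair 3, 38 of the 158 losses were in these stretches (24.1%). The share was 17.7% without pair 1, 15.3% without pair 2, 31.1% without pair 4 and 13.0% without pair 5. The stretches were picked on the fit with all pairs. Fits that share most of its pairs therefore cannot test whether losses gather there. Gains were scattered by comparison, with 24 stretches of 5 or more, none above 7, holding 8.34% of gains. The X chromosome had 36 of 1147 peaks lost (3.14%, against 1.53% of all peaks), 9 of them in the Btbd35f stretch, and 16 gained (1.39%). Chromosomes 8 and 4, which hold the largest stretches, had like shares of losses. These were 86 of 2752 (3.125%) and 95 of 3538 (2.69%), with gains at 3.02% and 3.11%. The X chromosome's share of all counts, a measure chosen after the data were seen, was 2.14% ± 0.0642 in aged and 2.04% ± 0.0510 in aged Ri libraries. It was lower in 5 of 5 pairs (2-sided exact permutation within pairs, p = 0.0625, the smallest possible).

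**Figure D5:**
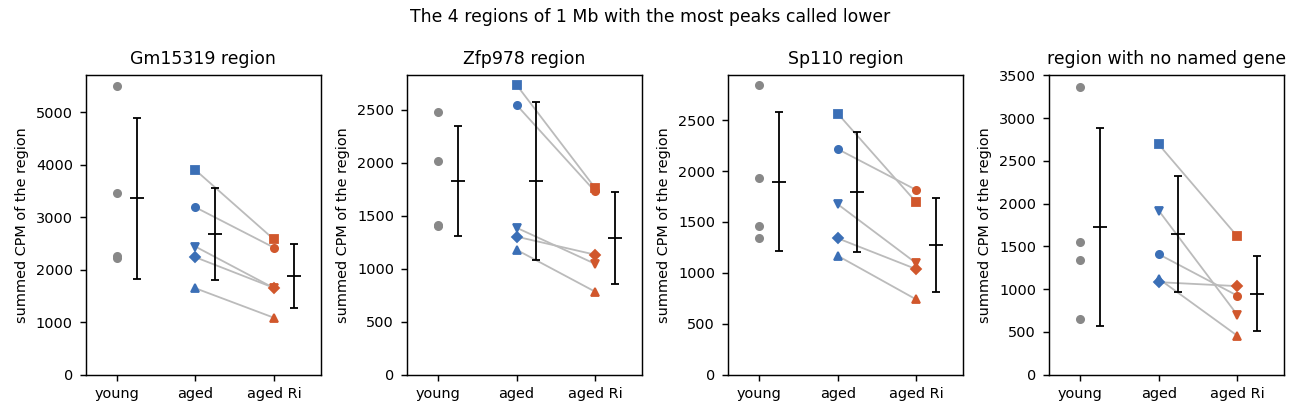
Summed CPM (vertical axis) in the 4 stretches of 1 Mb with the most lost peaks, by library, for young (grey), aged (blue) and aged Ri (orange) cells, with lines joining libraries of 1 replicate number and bars for the mean and SD. Every aged Ri library lies below its aged partner, while groups overlap because the pairs differ in level.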

How the data were processed

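Counts per consensus peak and library were deposited as a raw count matrix, and per the submitters' processing notes featureCounts, SAMtools 1.14 and R 4.2.0 were used with mm10. How reads were aligned and peaks called, what was done with duplicate and multiply matching reads, and any Tn5 shift are not given in the sources used here. Peaks are 700 bp wide. The matrix has no column without a sample, and no pair of libraries was identical.

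Tests used R 4.3.3 with edgeR 4.0.16 (filterByExpr by group, TMM scaling, robust quasi-likelihood fit, replicate number and group as terms) on the 10 aged and aged Ri libraries, with Benjamini-Hochberg adjustment over all peaks or windows kept and a threshold of 0.05. CPM were scaled by TMM over all 14 libraries, and differences within pairs are of log2 (CPM + 2). Standard errors come from the fold change and the F statistic. They and the p-values of the fit rest mostly on variance shared across peaks or across windows. The median prior degrees of freedom were 98.3 for peaks and infinite for windows, against 4 residual ones. These errors are thus not the spread of the 5 pairs, which the values by library show. The numbers come from the labels, each lies in 1 sequencing batch, and libraries of the same number deviated from their group means together in all 5 pairs (correlations of 0.371, 0.141, 0.598, 0.226 and 0.532 over 27982 peaks averaging 20 counts or more), so they were used as pairs. Some unmatched libraries also correlated, aged 2 with aged Ri 1 (0.326) and aged 5 with aged Ri 4 (0.312) more than aged 2 and aged Ri 4 did with their own partners. The series calls the replicates biological.

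RefSeq on GRCm38.p6 gave 21883 protein-coding genes, 17491 of them with a listed start. A window could be measured for 13416 genes, 10777 at a start and 2639 at an end, and 1298 of the 13713 peaks used are shared between genes. Peaks were named by the nearest gene within 50 kb. The 22 lists hold 560 symbols, of which 558 matched. The members, the lists and the comparison were chosen with earlier results of these data known. Named are the 12 largest gains and the 12 largest losses, at most 1 peak per gene, with a mean count of at least 20 and the same direction in 5 of 5 pairs, up to 4 called members of each list, and a fixed set of genes; the text gives part of these. The scripts were tested on simulated data with changes at peaks averaging 20 counts or more. Of 50 gains each, 12% were called at 1.5-fold, 64% at 2-fold and 100% at 3-fold. Of 50 losses of 2-fold, 48% were called. Alternatives were the batch in place of the pair, neither, all 14 libraries, other scalings, DESeq2 1.42.0, other filters, the share of counts at gene ends as a covariate, windows of 2 kb and leaving out each pair. Counts limit precision, and at a median of 11 to 30 counts per peak small changes are not detectable.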

Additional observations from a re-analysis of the deposited data

Results flagged for a closer look

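In all, 240 groups of 5 libraries were read: the aged or the aged Ri values of each named window and peak, of library totals and of shares of counts. In 28, all at windows or peaks, 1 library was far from the others. Its gap to the nearest was large for the range of the group (Dixon ratio above the 95% critical value). Chance marks about 1 in 20 groups, and windows and peaks of the same gene share their counts. Aged Ri 3, the library of the pair that weighed most on the calls, was the distant one in 9 of the 28. All values here are CPM, and the range of the other 4 libraries of the group follows each.

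Aged Ri 3 was high in the window and the peak of Pdgfb (38.7, others 17 to 23) and at peaks of Rptor (60.7, others 10.5 to 24.8), Zdhhc18 (41, others 13.6 to 19.8), Slc7a11 (77.1, others 21.8 to 37.5) and Elmo1 (28.4, others 11.7 to 14). It was also high at peaks of Runx1 (23.9, others 10.1 to 13.3), Pecam1 (24.2, others 10.2 to 12.2) and Lmna (67.1, others 32.3 to 41.7). Among the other aged Ri libraries, number 1 was low at the window of Ebf1 (20.8, others 32.7 to 37.5) and the start peak of Tiparp (18.2, others 29.5 to 31), and number 2 was low near Klrb1c (5.11, others 9.04 to 10.5). Aged Ri 5 was high at the Sptb window (15, others 7.42 to 8.51) and at an Akap13 peak that was called lost (8.09, others 5.11 to 5.75), and low at the peak inside Ahrr (28.7, others 65.1 to 74.2).

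Of the aged libraries, number 5 was high at the window and the peak of Atf3 (60.1, others 24.4 to 27.5), at the Klrg2 window (19.6, others 16.5 to 17.1) and near Asgr2 (16.9, others 5.47 to 8.79). Aged 3 was high at the peaks of Elmo1 (15.4, others 5.27 to 5.61), Actn1 (18.4, others 6.23 to 9.58) and Mcl1 (32.7, others 19.8 to 21.1). Aged 2 was high near Xpnpep1 (9.96, others 3.42 to 5.26) and low at peaks of Itgb3 (9.96, others 12.9 to 13.9) and Ripk3 (10.5, others 14.4 to 15.4). Aged 4 was low at the window of Lipi (1.37, others 6.44 to 8.27) and high at a peak of chromosome 19 with no gene within 50 kb (22.6, others 12 to 14.1), and aged 1 was high inside Traf1 (12, others 2.67 to 4.69). At Lipi, whose window was called a gain (log2 1.06), the adjusted p was 0.586 without pair 3 and 0.267 without pair 4 (edgeR).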

How the results depend on the processing

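Against 2292 peaks called with the replicate block, a fit with sequencing batch and no block called 819 (594 gains, 225 losses), all 14 libraries with batch and no block 251 (211, 40) and neither term 57 (51, 6). With the block, DESeq2 called 337 (269, 68) and a covariate for the share of counts at gene ends 3668 (2278, 1390). Leaving out 1 pair gave 463 (without pair 3) to 3569 (without pair 5). Other size factors (2240), loess offsets (2722), no filter (2183) and a mean count of at least 20 (2223) stayed within 1.5 times. Against 71 gene windows called with the block, the batch in its place called 7, all 14 libraries 7, neither term 0 (344 at an unadjusted p under 0.05, edgeR; DESeq2, run with the block, called 3), loess offsets 158 (123 up, 35 down), the covariate 358 (249, 109) and scaling over windows alone 120 (94, 26), with 3 (without pair 3) to 89 (without pair 5) when 1 pair was left out. At Rhoa, not called in any of these fits, the log2 fold change ranged from -0.35 (without pair 2) to 0.0935 (without pair 5), with 0.02 without pair 1, and at the Baiap2 start, also not called, from -0.24 (without pair 2) to 0.0677 (without pair 5). The difference in share of counts (aged Ri minus aged, percentage points) ranged from -1.46 (without pair 2) to 0.774 (without pair 5) at gene starts, with 0.742 without pair 1 and 0.0495 without pair 3. It ranged from -0.137 to 0.0936 at other gene ends (0.0106 without pair 3, 0.0506 without pair 5), from -0.5005 to 0.794 inside genes (-0.458 without pair 1, -0.0372 without pair 3) and from -0.378 to 0.803 between genes (-0.0228 without pair 3, -0.324 without pair 5). Of the genes and peaks named by rule, 40 of 114 lost a call with the batch in place of the block and 53 of 111 with DESeq2. Without pairs 1 to 5, 13, 17, 54, 31 and 4 lost a call. Some of the fixed genes had no call with the block to lose. Gains numbering 273 and losses numbering 92 kept their call whichever pair was left out. The cause of these differences was not tested. At this depth, small changes at weak peaks are not detectable.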

Other observations

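Genes of NF-kB signalling and inflammation gained at 6 of 100 peaks (6.00%, where 2.89% of all peaks gained) and lost at 1. The gains were at 2 peaks inside Traf1, an adaptor of TNF receptors (log2 1.29 and 0.78), inside Nfkb1 (0.76), and near Nfkbia, the NF-kB inhibitor (0.67), the chemokine gene Cxcl2 (0.85) and Bcl3 (0.96). The loss was near Tnfaip3, an enzyme that limits NF-kB signalling (log2 -0.75, adjusted p = 0.0163, edgeR). Without pair 3 the Cxcl2 gain alone of these 7 was called: the adjusted p was 0.153 and 0.0516 for Traf1, 0.416 for Nfkb1, 0.350 for Nfkbia, 0.364 for Bcl3 and 0.0817 for Tnfaip3. Without pair 4, Traf1 (its second peak, 0.0857), Nfkbia (0.123), Bcl3 (0.0738) and Tnfaip3 (0.0844) were not called, and without pair 2 Nfkbia (0.0652) and Nfkb1 (0.0653), the latter with 0.161 without pair 1. DESeq2 called 1 of the 100 peaks, and none of the 23 windows of the list was called by either tool (4 had an unadjusted p under 0.05 with edgeR).

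Among megakaryocyte and platelet genes, the losses included peaks at Gp9, a subunit of the von Willebrand factor receptor (log2 -0.73), and near Pdgfb (-0.99), while another peak at Pdgfb gained (1.28). DESeq2 called 1 of the 88 peaks of this list. Without pair 3 the adjusted p was 0.418 for Gp9, 0.292 for the Pdgfb loss and 0.0334 for the Pdgfb gain. The peak that gained is the only peak of the Pdgfb window. Tested among windows, it had 0.239 without pair 3 and was not called. The Pdgfb loss also had 0.137 and 0.0582 without pairs 2 and 5. Among endothelial and stromal genes, peaks inside Pecam1 (log2 1.42) and Cdh5 (0.79), adhesion molecules of endothelial junctions, and at the end of Fn1 (0.71), the gene of fibronectin, gained, and a peak near Kdr, a VEGF receptor, was lost (-0.88). Of these, none was called without pair 3 (edgeR, adjusted p = 0.119 for Pecam1, 0.372 for Cdh5, 0.175 for Fn1 and 0.187 for Kdr). Without pair 2 the adjusted p was 0.0602 for Cdh5, 0.0656 for Fn1 and 0.0766 for Kdr, without pair 4 it was 0.199, 0.0883 and 0.057, and without pair 1 Kdr had 0.125.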
